A study of Mus musculus with 11 samples.

Results

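The genes described here are those of the cytosolic ribosomal proteins, taken by name from the deposited expression table: every symbol made of Rpl or Rps and a number, together with Rpsa, Rplp0, Rplp1 and Rplp2, and without pseudogene symbols or the ribosomal S6 kinases. They numbered 82 of the 10885 genes in the table, 48 with an Rpl name (large subunit and its stalk) and 34 with an Rps name (small subunit). RNA was sequenced from dissociated cells of whole spleen and lymph node (LN) of 6 mice, which gave 11 libraries: wild type (Wt, mice 1 and 2), 3'RR-BCL2 transgenics (Tg, mice 3 and 4), whose BCL2 transgene is driven by the IgH 3′ regulatory region (heavy chain), and Igk-BCL2 animals (KI, mice 5 and 6), which carry BCL2 as a knock-in at Igk, the light chain locus kappa. Every mouse had been immunised 3 times with sheep red blood cells over 3 months, and tissue was taken 1 month after the last dose. Both insertions use regulatory elements of immunoglobulin loci, which act in B cells, whereas the libraries hold all cells of the tissue. Each group had 2 libraries except spleen Tg, which had 1 (mouse 4), and the labels used here give no age, strain or breeding colony. In the authors' column headers the Wt and Tg animals carry numbers close together, and the KI animals carry numbers far from these. What those animal numbers stand for is not given, and anything that goes with them cannot be told apart from the KI genotype.

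A ribosome joins a small and a large subunit, each of ribosomal RNA and a set of proteins made in near equal amounts, most of them from a single gene. In vertebrates the mRNAs of these proteins begin with a tract of pyrimidines at the very 5′ end, the TOP motif, through which mTORC1 sets how well they are translated, while MYC raises transcription of the same genes. Resting lymphocytes hold few ribosomes and build more when they are activated, and plasma cells turn much of their protein synthesis to antibody.

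By name, the set was not quite what its label says. Rps19bp1 encodes a protein that binds RPS19, and Rpl7l1 encodes a nucleolar factor related to RPL7; neither is a standard protein of the ribosome, and without them the differences in share of the signal described below were the same to 3 digits. Rpl22l1 and Rps27l are paralogues of Rpl22 and Rps27, and Rps27rt and Rpl37rt are retrogenes of Rps27 and Rpl37. In the GENCODE M21 annotation, 26 of the 82 members had at least 1 other near-identical copy in the transcript set (98% identity over at least 80% of the length), so that reads could be split between copies. Of the members, 30 had small nucleolar RNA genes inside them and 16 overlapped a protein-coding gene on the opposite strand, which matters here because the strand setting of the counting is not given in the sources used here. Rps10, Rpl13a and Rpl13 overlapped another coding gene on the same strand. Per kilobase of median transcript length, the mean signal was highest for Rplp1 (57475) and Rpl18 (54068) and lowest for Rps27l (718), Rps19bp1 (360) and Rps10 (257). Rps10 and Rpl13a (1196 per kilobase) encode standard ribosomal proteins, and all others of that kind were higher per kilobase. Whether the overlapping annotation lowered their counts was not tested.

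The start sites of some members are shown because the pyrimidine tract is the sequence feature that these genes are known to share. RefSeq (GRCm38.p6) gave promoters for 62 of the 82 members, with 73 annotated starts. Each line holds 40 bases before and 20 bases from the annotated start onward, 5′ to 3′ on the transcribed strand, and capitals mark the longest run of a C followed by at least 4 pyrimidines that begins between 10 bases before and 15 bases after the start.
Rps6 (chr4:86857348-86857407, minus strand): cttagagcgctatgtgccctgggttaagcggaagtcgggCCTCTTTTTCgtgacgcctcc
Rps18 (chr17:33955646-33955705, minus strand): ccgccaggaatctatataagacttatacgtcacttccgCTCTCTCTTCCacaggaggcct
Rps27 (chr3:90213629-90213688, minus strand): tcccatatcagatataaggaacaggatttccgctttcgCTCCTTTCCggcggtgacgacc
Rpl35 (chr2:39005112-39005171, minus strand): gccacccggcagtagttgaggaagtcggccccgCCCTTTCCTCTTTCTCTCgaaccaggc
Rpl38 (chr11:114668540-114668599, plus strand): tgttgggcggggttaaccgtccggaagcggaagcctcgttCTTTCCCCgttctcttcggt
Rplp2 (chr7:141447611-141447670, plus strand): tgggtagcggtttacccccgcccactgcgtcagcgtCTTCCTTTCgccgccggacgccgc
Rps10 (chr17:27635225-27635284, minus strand): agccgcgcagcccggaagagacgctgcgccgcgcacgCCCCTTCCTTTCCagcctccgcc
Rpsa (chr9:120127726-120127785, plus strand): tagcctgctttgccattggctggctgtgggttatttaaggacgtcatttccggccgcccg
Rpl7l1 (chr17:46782637-46782696, minus strand): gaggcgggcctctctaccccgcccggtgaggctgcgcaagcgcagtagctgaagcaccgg
Rps19bp1 (chr15:80264287-80264346, minus strand): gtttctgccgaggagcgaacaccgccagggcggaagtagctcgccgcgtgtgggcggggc

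Rps6, Rps18, Rps27, Rpl35, Rpl38, Rplp2 and Rps10 each had such a run at the annotated start, while none was found in the window of Rpsa, Rpl7l1 or Rps19bp1. The run was present at 39 of the 73 member starts (53.4%) and at 30.7% of all 32851 starts of the same table. The shorter string CTTTC, on the transcribed strand of the same window and in part the same letters, was found at 20.5% of member starts and 3.1% of all starts. TTCCGG, searched on both strands over all 300 bases, was found at 49.3% of member starts and 14.9% of all. TATAA between 40 and 15 bases before the start was found at 6.85% and 3.79%. Annotated starts can lie some bases from the position used in these cells, and a match describes letters only.

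Levels are given as the authors' normalised signal, a read count divided by 1 factor per library. Totals per library lay between 17217404 and 18046250, and the reads recovered from the values between 11128568 and 24110325. Log2 differences come from limma on log2(signal + 1) over all 10885 genes, with standard errors, and a gene was called at a Benjamini-Hochberg adjusted p under 0.05. With 2 mice a group, p-values measure the spread between these mice. Sex was not balanced between genotypes: Xist was at 14513 and 12314 in spleen and LN of Wt mouse 1, where Ddx3y was 0, while every library of the other mice had Ddx3y at 1452 to 3064 and Xist at 8.04 or less.

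The ribosomal protein genes took a smaller share of the RNA in KI mice than in Wt mice, in both tissues. In LN the 82 genes held 10.4% and 8.96% of the summed signal in Wt mice 1 and 2, and 5.99% and 7.04% in KI mice 5 and 6. In spleen they held 7.78% and 8.31% in Wt, and 5.58% and 6.37% in KI. The Tg mice were near Wt, at 9.88% and 8.10% in LN of mice 3 and 4 and 8.26% in the spleen of mouse 4. Every KI library was thus below every Wt and Tg library of either tissue. Counting error was small beside these gaps: the widest Wilson 95% interval of a share spanned 0.0359 percentage points. The ratio of Rpl to Rps signal lay between 1.24 and 1.28 in all 11 libraries, and the 4 KI libraries (1.25 to 1.27) lay within the range of the others.

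**Figure D1:**
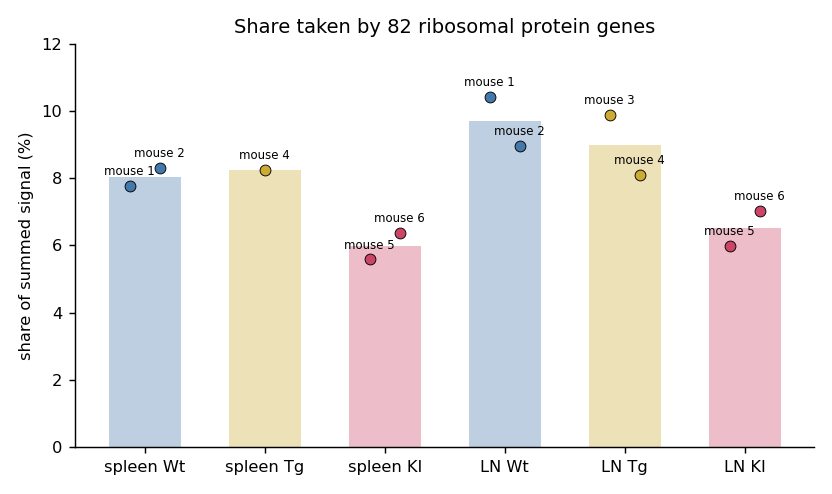
Share of the summed normalised signal held by the 82 ribosomal protein genes, in percent, by tissue and genotype. Points are libraries with the mouse number and bars are group means (n = 2, and n = 1 for spleen Tg); the KI libraries sit between 5.58% and 7.04%, and all others between 7.78% and 10.4%.

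Immunoglobulin genes moved the other way. Their share in LN was 0.662% and 0.751% for Wt, against 9.46% and 6.77% for KI. Their share in spleen was 1.90% and 2.18% for Wt, against 8.23% and 5.25% for KI. Of the genes left when immunoglobulin and haemoglobin genes were taken out, the ribosomal protein genes held 10.5% and 9.03% in LN of Wt mice against 6.61% and 7.55% in LN of KI mice. In spleen they held 7.93% and 8.50% against 6.09% and 6.73%. In bulk tissue, fewer cells of a type and less RNA per cell cannot be told apart.

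Gene by gene, 46 of the 82 members fell in KI LN against Wt LN, 1 rose and 35 were not called, while of all genes 12.2% were lower and 13.8% higher. The members' median log2 difference was -0.53 (a 1.45-fold lower level), against -0.02 for all genes tested. Of the 48 Rpl genes 26 fell (median -0.50), and of the 34 Rps genes 20 fell and 1 rose (median -0.59). The signal of both KI mice lay below both Wt mice for 76 of 82 members (92.7%), against 34.8% of all genes. The exceptions were Rpl13a, Rpl34, Rps10, Rps19bp1, Rps27 and Rps27l. Without Wt mouse 1 the count of called members was 8, and without KI mouse 5 it was 10; leaving out only their LN libraries gave 18 and 16. The median kept its sign in these fits, between -0.66 and -0.42 whichever library or mouse was left out.

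In KI spleen 24 members fell and none rose, against 9.21% of all genes lower and 7.63% higher; 56 members had an unadjusted p under 0.05. The median was -0.42, against 0.01 for all genes. Both KI spleens lay below both Wt spleens for 76 of the 82 (31.9% of all genes), and here Rpl7l1 and Rps27rt joined Rpl13a, Rps10, Rps19bp1 and Rps27l as the exceptions. Of the 46 members lower in LN and the 24 lower in spleen, 23 were in both (50% of the first list and 95.8% of the second); the 1 lower in spleen alone was Rpl22l1. The spleen calls hung on each library: without spleen Wt mouse 1, Wt mouse 2, KI mouse 5 or KI mouse 6 they numbered 2, 1, 1 and 6, at medians between -0.49 and -0.35, while without either LN Tg library, which enters only through the pooled spread, they numbered 45. No member's KI effect differed between tissues by the interaction test, at an adjusted or an unadjusted p under 0.05, where 0.193% of all genes were called lower and 0.763% higher. The median of that difference was -0.11, and leaving out libraries or mice moved it between -0.28 and 0.03.

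**Figure D2:**
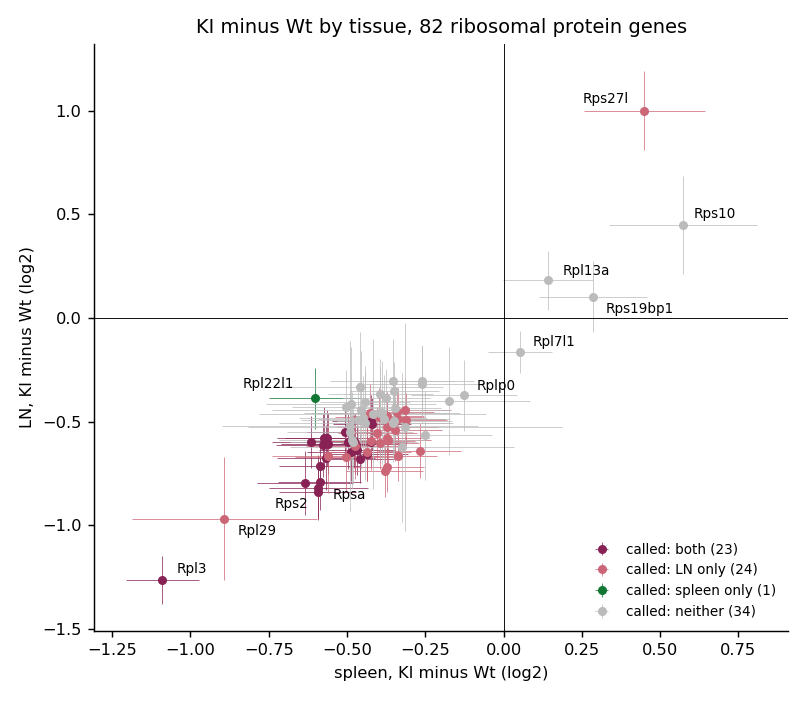
Log2 difference KI minus Wt of each of the 82 members in spleen (x axis) and LN (y axis), with standard errors as bars, coloured by the tissue in which the gene was called. Most members form 1 cloud between about -0.3 and -0.8 in both tissues, Rpl3 and Rpl29 lie below it, and Rps27l, Rps10, Rps19bp1 and Rpl13a lie above 0 in both.

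Rpl3, a protein of the large subunit close to the peptidyl transferase centre, fell most. Its signal was 46670 and 42403 in Wt LN, 40568 and 40981 in Tg LN, and 17566 and 19542 in KI LN. In spleen it was 34165 and 36374 in Wt, 35087 in Tg, and 15961 and 17191 in KI. The highest KI library (19542) was thus far below the lowest of the 7 others (34165), with no overlap across tissues. The difference from Wt was -1.26 ± 0.12 in LN (limma adjusted p = 6.64e-05) and -1.09 ± 0.12 in spleen (limma adjusted p = 0.000406), and that from Tg was -1.14 ± 0.12 in LN and -1.08 ± 0.14 in spleen. Of the members named here as called in LN or spleen against Wt, or in LN against Tg, Rpl3 was the 1 that kept its call under every alternative run in all 3 comparisons. It has 3 near-identical copies in the transcript set, so a part of its reads may have been assigned elsewhere.

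Rpl29, a small basic protein of the large subunit, differed between the KI mice. It stood at 5704 in LN and 4953 in spleen of mouse 5, and at 9525 and 8692 in mouse 6. The 7 Wt and Tg libraries lay between 11962 and 15429. The gap to Wt of -0.97 ± 0.30 in LN passed narrowly (limma adjusted p = 0.0474) and that of -0.89 ± 0.30 in spleen did not (limma adjusted p = 0.0796), although no KI library reached a Wt library. Rpl29 has 7 near-identical copies.

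Among small-subunit genes, Rps2, an entry-channel protein, and Rpsa, the laminin receptor precursor, fell in both tissues. Rps2 stood at 42019 and 39234 in Wt LN, against 23203 and 22162 in KI LN. The spleen held 30150 and 33767 in Wt and 19577 and 22854 in KI. The differences were -0.84 ± 0.12 in LN and -0.59 ± 0.12 in spleen (limma adjusted p = 0.00085 and 0.0101), with no overlap of the groups. Rpsa stood at 70441 and 66367 in Wt LN, against 37217 and 41815 in KI LN, a difference of -0.79 ± 0.13 (limma adjusted p = 0.00176). In spleen Rpsa was 50387 and 56575 in Wt and 32659 and 38654 in KI, a difference of -0.59 ± 0.13 (limma adjusted p = 0.0143). Rps12, Rps9 and Rps15a also fell in both tissues, by log2 values of -0.60, -0.68 and -0.61 in LN and -0.61, -0.46 and -0.58 in spleen. Rps6, the substrate of the S6 kinases, fell in LN by 0.67 ± 0.18 on the log2 scale (limma adjusted p = 0.0183). In spleen it was at 22025 and 23158 in Wt and 14610 and 16034 in KI and missed the threshold (-0.56 ± 0.18, limma adjusted p = 0.0531). Rps27a, made as a fusion to ubiquitin, was not called in LN (-0.43 ± 0.17) or spleen (-0.50 ± 0.17).

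Other large-subunit members that fell in both tissues were Rpl21, Rpl10a and Rpl15. Rpl21 was 27954 and 23585 in Wt LN, against 14031 and 15561 in KI LN, a difference of -0.80 ± 0.15, and its spleen difference was -0.63 ± 0.15. Rpl10a differed by -0.71 ± 0.13 in LN and -0.59 ± 0.13 in spleen, and Rpl15 by -0.58 ± 0.13 and -0.57 ± 0.13. Rpl8, a neighbour of the peptidyl transferase centre, was called in LN, where it went from 46842 and 41520 in Wt to 26076 and 26761 in KI (-0.74 ± 0.12, limma adjusted p = 0.0017).

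The stalk of the large subunit, which brings elongation factors to the ribosome, did not move as a unit in the calls. Rplp1 was 41380 and 35570 in Wt LN, against 19148 and 24676 in KI LN, and fell in LN (-0.82 ± 0.16, limma adjusted p = 0.00376) and in spleen (-0.59 ± 0.16, limma adjusted p = 0.0281). Rplp2 fell in LN (-0.72 ± 0.12, limma adjusted p = 0.00174) and was -0.37 ± 0.12 in spleen (limma adjusted p = 0.0564). Rplp0, which anchors both, was 51304 and 45017 in Wt LN, against 36220 and 37965 in KI LN, with differences of -0.37 ± 0.17 in LN and -0.13 ± 0.17 in spleen, neither called. Its highest value of all, 65154, was in the LN of Tg mouse 4, and the spleen of the same mouse held 49389, above the 33859 and 35362 of the Wt spleens. Rplp0 was the 1 member with an unadjusted p under 0.05 in spleen Tg against Wt (0.51 ± 0.21), and it was not called. Whether the fall of Rplp0 differs from that of Rplp1 was not tested.

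**Figure D3:**
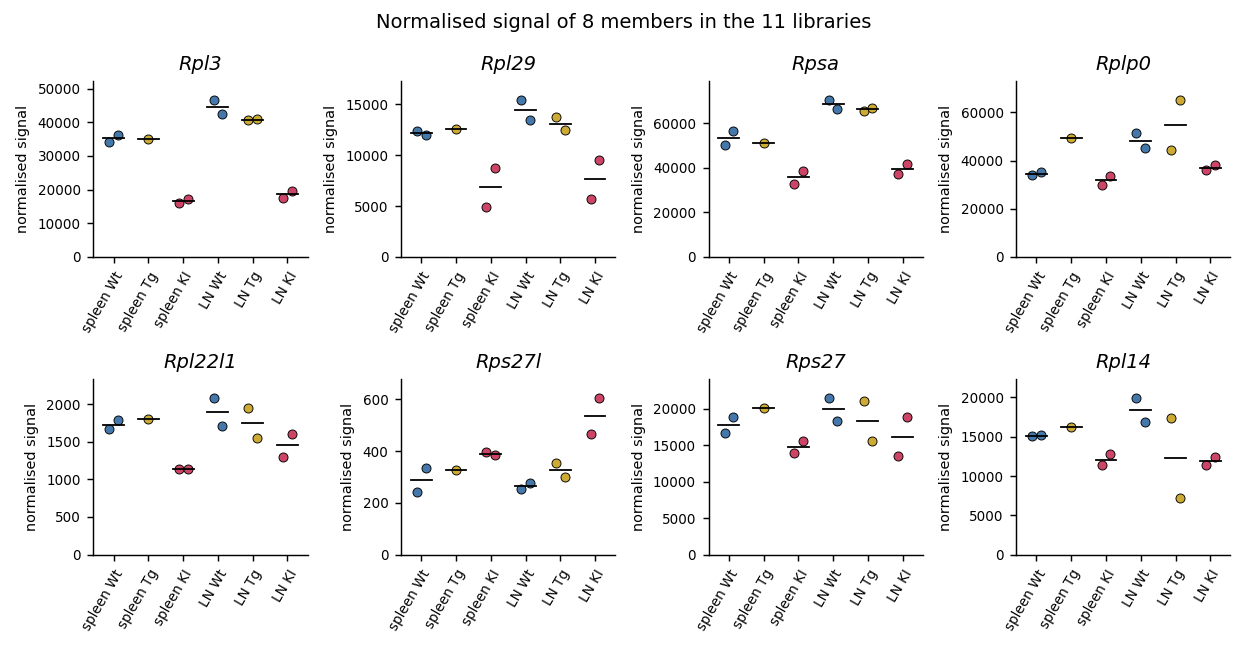
Normalised signal of 8 members in each of the 11 libraries, by group (points are mice, lines are group means, axes start at 0). Rpl3 and Rpsa separate KI from all other groups, Rpl29 is split between the KI mice, Rps27l is highest in KI LN, and Rpl14 and Rplp0 show a Tg LN library apart from its partner.

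The paralogues went separate ways. Rps27l, which differs from Rps27 by few residues and is known as a p53 target, rose in KI LN: it was 255 and 276 in Wt and 465 and 607 in KI, a difference of 1.001 ± 0.19 (limma adjusted p = 0.00375). In spleen it was 241 and 336 in Wt and 395 and 383 in KI, again with no overlap, but was not called (0.45 ± 0.19, limma adjusted p = 0.133). The difference of these effects between tissues was 0.55 ± 0.27 and was not called. Rps27 itself was 21538 and 18313 in Wt LN, against 13479 and 18810 in KI LN, where the groups overlapped (-0.32 ± 0.19, not called). Rps27l therefore stood at 1.18% and 1.51% of the signal of Rps27 in Wt LN and at 3.45% and 3.23% in KI LN. In spleen the ratio was 1.45% and 1.78% in Wt and 2.83% and 2.46% in KI. These percentages compare signal without regard to length.

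Rpl22l1, a paralogue that can stand in for Rpl22, fell in spleen, from 1671 and 1782 in Wt to 1133 and 1140 in KI (-0.60 ± 0.15, limma adjusted p = 0.0196). In LN it was 2087 and 1714 in Wt and 1298 and 1608 in KI (-0.39 ± 0.15, limma adjusted p = 0.0771). Rpl22 was not called in either tissue (-0.31 ± 0.16 in LN and -0.26 ± 0.16 in spleen). Rpl22l1 was 27.0% and 29.0% of Rpl22 in Wt spleen and 23.2% and 21.0% in KI spleen, whereas in LN the values of Wt (25.9% and 27.3%) and KI (23.8% and 26.4%) overlapped. The retrogenes were not called: Rps27rt was -0.40 ± 0.26 and Rpl37rt -0.30 ± 0.20 in KI LN.

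To see which members left the common movement, each library was also set to its own median member, an alternative chosen after seeing the data. Relative to that median, Rpl3 was lower in KI LN (-0.69 ± 0.18, limma adjusted p = 0.00763) and KI spleen (-0.62 ± 0.18, limma adjusted p = 0.018), and no other member was lower. Higher were Rps27l, Rps10, Rps19bp1 and Rpl13a in both tissues and Rpl7l1 in spleen. This scale moves the median of all genes by 0.57 in LN and 0.47 in spleen, and 1.92% of them were lower and 50.4% higher in LN, and 2.4% and 38.6% in spleen. Rps10 was at 206 and 126 in Wt LN, against 206 and 236 in KI LN, and at 133 and 146 in Wt spleen and 199 and 216 in KI spleen. Rpl13a was at 614 and 521 in Wt LN, against 632 and 650 in KI LN. On the authors' scale neither was called in either tissue. Rps10 has a pyrimidine run at its start in the sequences above, as Rplp2 does.

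The difference went with the level of the gene in LN, and in spleen only weakly by rank. Across the 81 members with a coding model, the LN difference KI minus Wt had r = -0.786 and rho = -0.662 with the log2 signal in the spleen Tg library, which enters neither group mean; in spleen the values were r = -0.712 and rho = -0.283. The members with a difference above 0 in LN (Rps27l, Rps10, Rpl13a and Rps19bp1) are all of low level, but low members such as Rps27rt and Rpl37rt had differences below 0. With coding length the LN difference had r = -0.308 and rho = -0.446, and the spleen difference r = -0.17 and rho = -0.145. The points are genes measured in the same libraries and are not independent.

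**Figure D4:**
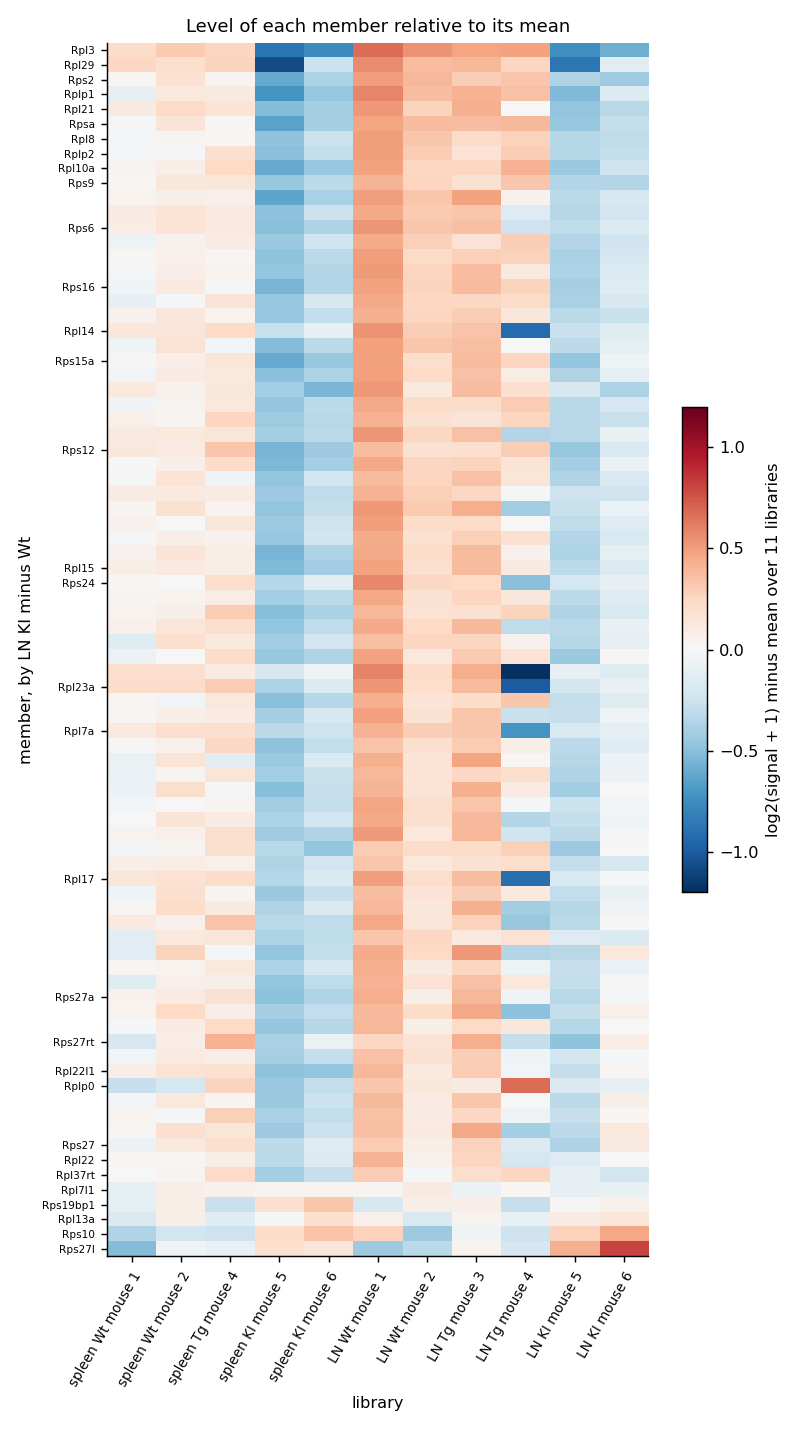
Log2(signal + 1) of each member minus its mean over the 11 libraries, members ordered by KI minus Wt in LN (colours end at 1.2 in each direction, and only members named in the text are labelled). The KI columns are blue for most members, LN Wt mouse 1 is the highest library for 69 of 82, and LN Tg mouse 4 is low for a subset of members.

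Against Wt, the Tg mice called no member in either tissue. In LN the median was -0.13 (all genes -0.02), 1 member (Rps24, -0.54 ± 0.21) had an unadjusted p under 0.05, and 0.0% of all genes were called lower and 0.0% higher; edgeR, DESeq2 and limma-voom on recovered LN reads called 0 members as well. Both Tg libraries lay below both Wt libraries for 8 members (9.76%), against 14.6% of all genes. In spleen, where the spread of the lone Tg library was taken from the other groups, the median was 0.05, 1 member had an unadjusted p under 0.05, and 0.0% of all genes were called lower and 0.0% higher. That nothing was called is not evidence that Tg equals Wt.

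The Tg LN libraries differed from each other in these genes more than any other pair did. The log2 difference of mouse 4 from mouse 3 had an SD of 0.396 over the 82 members, against 0.105 to 0.154 in the 4 other pairs of libraries; over all genes the SD in Tg LN was 0.449 and in the other pairs 0.451 to 0.918. Rpl17, a large-subunit protein near the exit of the peptide tunnel, was 26110 in mouse 3 and 10778 in mouse 4, and it lay between 15940 and 28667 in the 9 other libraries. Rpl14 was 17350 and 7203, Rpl23a 8107 and 3121, and Rpl7a 19262 and 9316. These were among the 5 members more than 2-fold lower in mouse 4, while 19 were lower by over 0.5 on the log2 scale, and Rplp0 was 0.56 higher. In the spleen of the same mouse these 4 genes were above both Wt spleens (Rpl14 at 16188, beside 15068 and 15173). The library was the lowest of all 11 for 10 members. Without LN Tg mouse 3, where the spread of the lone library was taken from the other groups, 5 members were called lower than Wt, of 10 among all 10885 genes; these 4 genes, picked above for their low value in that library, were among them. Without LN Tg mouse 4 the count was 0.

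**Figure D5:**
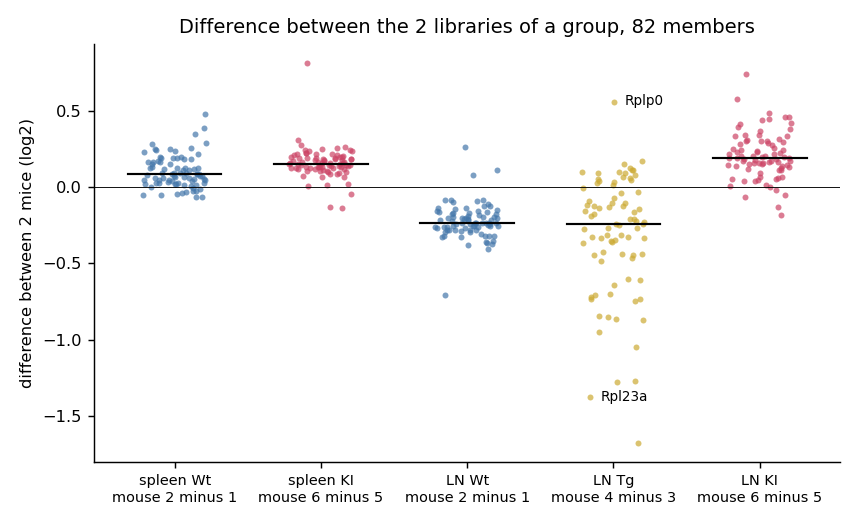
Log2 difference between the 2 libraries of a group for each of the 82 members (points, spread sideways at random; lines are medians). In LN Tg the SD is 0.396, with Rpl23a among the 5 points under -1 and Rplp0 the highest at 0.56, and in the other 4 groups the SD over members is at most 0.154.

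In that pair the difference had r = -0.496 and rho = -0.55 with the share of A in the coding sequence over 81 members. The other pairs gave rho between -0.43 and 0.22. The coding sequences of the 5 lowest members held 28.1% to 32.6% A (median 30.1%), within the range of 19.9% to 35.3% of all members. In KI LN, the difference of mouse 6 from mouse 5 had rho = -0.64 with coding length and 0.22 with the A share. These are descriptions of single pairs of libraries, and library chemistry or RNA quality was not tested.

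KI against Tg shares the KI libraries with KI against Wt. In LN 35 members fell and 1 rose (Rps27l, 0.70 on the log2 scale), with 12.2% of all genes lower and 14.5% higher; the median was -0.39. Both KI libraries lay below both Tg libraries for 52 members (63.4%), against 30.0% of all genes. After Rpl3 the largest falls were Rpsa (-0.75 ± 0.13), Rplp1 (-0.73 ± 0.16), Rps2 (-0.71 ± 0.12) and Rpl10a (-0.69 ± 0.13). Relative to the members' median, Rpl3 was lower (-0.78 ± 0.18) and Rps27l, Rps10 and Rpl13a were higher, where 3.42% of all genes were lower and 27.5% higher. Without KI mouse 5 the calls numbered 3 (8 without its LN library alone), without mouse 6 they numbered 21, and edgeR on recovered reads called 19. In spleen 9 members fell against the 1 Tg library (4.35% of all genes), at a median of -0.49: Rpl3, Rps12, Rpl10a, Rpl27a, Rps28, Rpl22l1, Rpl36, Rps13 and Rplp2. That number was 1 and 2 without KI mouse 5 and KI mouse 6 in spleen, and 31 without either LN Tg library.

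Between tissues few members were called, at shares no larger than those of all genes. In Wt mice 79 of 82 had a positive LN minus spleen difference, at a median of 0.25 (all genes 0.02), and both LN libraries lay above both spleen libraries for 63 (76.8%), against 29.3% of all genes. The 1 member called was Rplp2, at 20478 and 17882 in LN and 14178 and 14210 in spleen (0.43 ± 0.12, limma adjusted p = 0.0478), where 3.09% of all genes were higher and 6.29% lower. Its call was lost when any Wt or KI library was left out, and with the mouse as a fixed term Rplp0 (0.47 ± 0.13) and Rplp1 (0.46 ± 0.14) were called beside it. In KI mice the median was 0.16 and none was called, against 4.78% of all genes higher; 28 members (34.1%) had both LN above both spleens, near the 28.7% of all genes. With genotype and tissue as additive terms 4 members were higher in LN (6.05% of all genes): Rpsa (0.28 ± 0.08), Rpl3 (0.24 ± 0.07), Rplp1 (0.33 ± 0.09) and Rps16 (0.28 ± 0.08). With the mouse as a fixed term these 4 were not called and Rplp0 was (0.36 ± 0.09).

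The other genes of the translation machinery were read from lists chosen with earlier results of these data known, and are given by counts against the same backgrounds. Of all genes 12.2% were lower and 13.8% higher in KI LN against Wt, and 9.21% and 7.63% in KI spleen. Of 9 genes listed as elongation factors 7 fell in KI LN and 5 in KI spleen, with none higher. The 9 include Eef1e1, Eef1akmt1 and Eef2k, which are named after such factors but are not elongation factors. Eef1a1, which delivers aminoacyl-tRNA, went from 218864 and 192899 in Wt LN to 125603 and 121713 in KI LN (-0.73 ± 0.13), and Eef2, the translocase, fell by 0.66 ± 0.12 on the log2 scale. Rack1, a protein of the small subunit under another name, fell in LN (-0.72 ± 0.13) and spleen (-0.46 ± 0.13), and the 2 other such genes were not called. Of 11 further TOP mRNAs and nascent chain factors 6 fell in LN and 7 in spleen. Npm1, a nucleolar chaperone, fell in spleen by 0.90 ± 0.17 on the log2 scale, and Hnrnpa1 fell in both tissues. The list also holds Vim, an intermediate filament gene, at -1.16 ± 0.10 in LN and -0.74 ± 0.10 in spleen.

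Of 37 initiation factor genes 8 fell in LN and 6 in spleen, at medians of -0.19 and -0.20. Pabpc1, the poly(A) binding protein, fell in LN (-0.64 ± 0.15) and spleen (-0.59 ± 0.15), Eif3f in LN (-0.55 ± 0.13) and Eif5 in spleen (-0.84 ± 0.13). Of 56 ribosome biogenesis and nucleolar genes 22 fell in LN and 7 in spleen (medians -0.32 and -0.16), among them Gnl3 (nucleostemin), at -0.63 ± 0.13 in LN and -1.38 ± 0.13 in spleen, and Fbl (fibrillarin), at -0.57 ± 0.11 and -0.56 ± 0.11. RNA polymerase I and III genes fell in 4 of 29 cases in LN (13.8%) and 1 of 29 in spleen (3.45%), at medians of -0.13 and -0.02. These shares were near that of all genes in LN (12.2% lower) and below it in spleen (9.21% lower). The proteins of the mitochondrial ribosome, a separate particle, had medians near those of all genes, at -0.07 in LN and -0.01 in spleen. Of 77 such genes 5 were lower in LN (6.49% called), and 1 was lower and 1 higher in spleen (2.6% called). These shares were below those of all genes, at 12.2% lower and 13.8% higher in LN, and 9.21% and 7.63% in spleen.

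Regulators of ribosomal protein genes were mixed. Myc fell from 3096 and 3369 in Wt LN to 1154 and 1269 in KI LN (-1.42 ± 0.15, limma adjusted p = 0.000124). In spleen it fell from 5049 and 4226 to 933 and 1128 (-2.17 ± 0.15, limma adjusted p = 5.36e-05), and both Wt spleens were above both Wt LN. Of 9 measured genes of the MYC network, Myc included, 1 fell and 2 rose in KI LN (33.3% called), and 1 fell in KI spleen (11.1%). The 2 that rose were Mxd3 (1.24 ± 0.29) and Mxi1 (0.52 ± 0.14), which oppose MYC. Of 26 genes of mTORC1 and TOP translation 2 fell and 1 rose in each tissue: Pdcd4, an inhibitor of the helicase Eif4a, and Cnbp, a binder of TOP mRNAs, fell in both, while the S6 kinase genes Rps6kb1 in LN (0.54 ± 0.13) and Rps6kb2 in spleen (0.56 ± 0.13) rose. Of 15 genes of ribosome quality control and its link to p53, 2 fell in LN (Gcn1 and Zfp598) and 1 in spleen (Cdkn1a). The shares called in either direction were 11.5% in each tissue for the mTORC1 list, and 13.3% in LN and 6.67% in spleen for quality control. Of all genes, 12.2% were lower and 13.8% higher in LN, and 9.21% and 7.63% in spleen. The part of Myc or of the other regulators in the lower ribosomal protein signal was not tested.

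Cell type markers also differed between KI and Wt. Of 10 plasma cell markers 10 rose in KI LN and 7 in KI spleen; their summed signal was 7297 to 8892 in Wt LN against 149907 to 154767 in KI LN, and 20483 to 20489 in Wt spleen against 80004 to 130719 in KI spleen. All 10 T cell markers fell in both tissues, from 69372 to 73992 in Wt LN to 31006 to 36645 in KI LN, and from 36386 to 37107 in Wt spleen to 16887 to 17963 in KI spleen. Germinal centre markers rose in 9 of 10 cases in LN and 4 of 10 in spleen, with sums of 5110 to 5204 in Wt LN against 21888 to 28296 in KI LN, and 5397 to 6358 in Wt spleen against 6859 to 10259 in KI spleen. Of 10 macrophage markers 6 fell in LN (sums of 1641 to 2369 in Wt and 947 to 1101 in KI) and none was called in spleen, where the sums were 9928 to 10206 in Wt and 11936 to 12127 in KI. Naive B cell markers went both ways, with 4 lower and 4 higher in LN and 2 lower and 3 higher in spleen. No neutrophil or erythroid marker was called in either tissue, but their sums were uneven. Erythroid sums were 727 to 1024 in Wt spleen against 3029 to 25898 in KI spleen, and 1166 to 1676 in Wt LN against 205 to 358 in KI LN. Neutrophil sums were 6732 to 53824 in Wt spleen against 2330 to 7190 in KI spleen, and 127 to 1896 in Wt LN against 530 to 621 in KI LN. None of the plasma cell, T cell, germinal centre, naive B cell and macrophage markers was at 0 in any of the groups. Immediate early genes, which respond to activation and to handling, fell in 7 of 15 cases in LN and 12 of 15 in spleen. The part of these cell types, or of handling, in the lower ribosomal protein signal was not tested. T cell markers were higher in LN than in spleen in both Wt and KI mice (10 of 10 called in each, at medians of 0.95 and 0.99).

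Across the 11 libraries, the log2 signal of 57 of 82 members had r above 0.9 with the log2 summed signal of the set, which contains each of them, against 196 of the 10803 other genes. The median r of the members was 0.943, and 6 members were under 0.5, among them Rps27l, Rps19bp1, Rps10, Rpl13a and Rpl7l1. The genes outside the set whose signal followed the sum most closely were Eef1b2 (r = 0.983), Tmsb10 (r = 0.974), Pgm1 (r = 0.973), Macroh2a1 (r = 0.972) and Hcst (r = 0.965), over the same 11 libraries, which share 6 mice. Eef1b2 is an elongation factor subunit, Tmsb10 binds actin monomers, and Hcst is an adaptor of T and natural killer cells.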

How the data were processed

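The authors deposited a normalised signal for 10885 genes in 11 libraries. Per the submitters' processing notes, the tools were DESeq2 1.26.0, featureCounts, STAR 2.5, Subread 1.4.6 and FastQC 0.11.5 and the build was GRCm39, in no stated order; annotation, strand setting and gene filter are not given in the sources used here. From the values, the deposited signal is a read count divided by 1 factor per library: 100% of values were whole multiples of 1 step (tolerance 0.05 reads). A count test (edgeR) had been planned for raw counts; since the table holds none, limma-trend 3.58.1 (R 4.3.3) was run on log2(signal + 1), with robust empirical Bayes, 6 group means, 5 residual degrees of freedom and Benjamini-Hochberg adjustment over all genes. edgeR 4.0.16, DESeq2 1.42.0 and limma-voom on recovered reads were alternatives for LN only. The fit was also run on simulated counts with known changes in KI LN. The simulated libraries were independent of each other, so the pairing of tissues was not covered, and the calls above do not rest on that run. The numbers pair the tissues of 1 mouse: over all genes, deviations from group means correlated at 0.403 in Wt and 0.900 in KI. Over the 82 members the values were 0.420 and 0.309. The consensus correlation over all genes was 0.0168. Members and gene lists were chosen with earlier results of these data known. Named members were up to 10 called with the largest rise and fall in a comparison (otherwise the smallest p), paralogues and stalk genes, the extremes per length, and for each list up to 4 called genes by p. Some members are counted but not reported here by name. Copies were found with BLAST 2.17.0 in GENCODE M21 transcripts (GRCm38).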

Additional observations from a re-analysis of the deposited data

How the results depend on the processing

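Counts of called members depended on single libraries, while the median KI minus Wt difference stayed below 0. Over 30 alternatives in LN and 27 in spleen, leaving aside the scale of the members' own median, at least 78 and 77 members were below 0, at medians of -0.66 to -0.30 and -0.49 to -0.26. Called members are given as counts against 47 in LN KI against Wt, 24 in spleen KI against Wt, 36 in LN KI against Tg and 9 in spleen KI against Tg. Quantile normalisation gave 14, 9, 15 and 3. The members' median as scale, chosen after seeing the data, gave 5, 6, 4 and 4, and on it Rpl10 (0.0972) and Rpl7 (0.0135) in LN and Rps4x (0.0294) in spleen changed sign in KI against Wt. Fitting only the groups compared gave 59 in spleen KI against Wt, 8 in LN KI against Tg and 35 in spleen KI against Tg. Ordinary empirical Bayes gave 12 and 5 in the spleen comparisons with Wt and Tg. Removing immunoglobulin and haemoglobin genes gave 15 in spleen KI against Wt, and moved the median of all genes by 0.13 in LN KI against Wt. In LN KI against Tg, edgeR gave 19 and limma-voom 21.

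Leaving out 1 library or mouse gave 8 to 67 and 1 to 46 called members for KI against Wt in LN and spleen, 3 to 53 and 1 to 31 for KI against Tg, and 0 to 5 for LN Tg against Wt. The LN minus spleen counts ran from 0 to 3 in Wt (1 with all libraries) and from 0 to 12 in the additive fit (4 with all libraries). The Wt count was 0 without immunoglobulin and haemoglobin genes, without low genes, with ordinary empirical Bayes, with quantile normalisation, on the members' median and on either total-based scaling, and 2 with only the groups compared. The additive count was 2 with quantile normalisation and 0 on the members' median and on either total-based scaling. With the mouse as a fixed replicate block, the LN minus spleen count was 3 in Wt and 1 in the additive fit, and the Tg effect differed between tissues for 3 members instead of 0, Rpl23a and Rpl14 among them. The replicate block as a random term changed no count by over 1.5 times. With 2 mice a group and 5 residual degrees of freedom, a missed call shows little.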
